A study of Mus musculus with 12 samples.

Results

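The circadian clock of the liver was followed here through 10 genes: the activators Arntl and Npas2, the repressors Per1, Per2, Per3, Cry1 and Ciart, the nuclear receptors Nr1d1 and Nr1d2, and the output factor Dbp. Each gene was found by its symbol in the annotation of the array platform, and where a symbol had more than 1 transcript cluster (the set of probes that reads 1 transcript), the cluster with the highest mean over the arrays was used. This gave 9 of the 10 genes, in 10 clusters, out of 19938 genes in 21789 clusters that carry exactly 1 symbol. Npas2 was not analysed here, since no cluster carries its symbol alone.

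In the clock of mammalian cells, BMAL1 (the product of Arntl) pairs with CLOCK or NPAS2 and binds E-box sequences, which switches on the Per, Cry, Nr1d, Ciart and Dbp genes. The PER, CRY and CIART proteins then hold the pair back, and the NR1D receptors (REV-ERB alpha and beta) recruit the corepressor NCoR with the deacetylase HDAC3 to response elements in Arntl and other genes. In liver, levels of Arntl therefore peak at another time of day than those of Nr1d1, Dbp and the Per genes, and DBP in turn acts on D-box sequences of metabolic genes.

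Liver RNA of 12 mice was measured on Affymetrix mouse Gene 1.0 ST arrays, with 3 mice in each of 4 groups that cross genotype with thyroid state. The genotypes were control mice and L-NCoR∆ID mice, called mutants here, whose livers carry a form of NCoR that lacks part of its receptor interaction region. Each genotype was studied euthyroid and hypothyroid, and the study asked what NCoR does in genes that thyroid hormone raises and in genes that it lowers. Among controls, replicates 13, 14 and 15 were euthyroid and replicates 17, 18 and 20 hypothyroid, and among mutants, replicates 2, 3 and 4 were euthyroid and replicates 5, 6 and 7 hypothyroid. The sources used here do not give age, sex, the hour of collection, the way hypothyroidism was produced or the promoter that restricts the mutation to liver. Whether the mutant NCoR still binds the NR1D receptors is likewise not given.

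Values were log2 signals, on which a difference of 1 is a change of 2-fold, and levels of different genes were not compared because their probes differ. Array medians lay between 4.16 and 4.32. The spread (SD) of signals over an array ran from 2.22 to 2.28 in euthyroid controls, 2.29 to 2.30 in hypothyroid controls, 2.26 to 2.31 in euthyroid mutants and 2.32 to 2.35 in hypothyroid mutants. It was thus higher in hypothyroid than in euthyroid mice of the same genotype, and its part in the thyroid differences was tested only as a covariate. The 7 measured hepatocyte markers had a mean signal of 12.1 to 12.3 in every group. Over all clusters, the ends of the first principal component were held by replicate 14, a euthyroid control, and replicate 7, a hypothyroid mutant. Control euthyroid replicate 13 stood apart in the clock genes themselves, as its values below show, and results are given with and without it.

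The binding sequences of the clock loop were looked for in the promoters, as RefSeq windows of assembly GRCm38.p6 that run from 250 bases before to 50 bases after a gene's start. Of the 10 genes 9 had windows (Per2 had no entry), 11 windows in all. The sequences searched, on both strands, were the E-box CACGTG and the D-boxes TTATGTAA and TTACGTAA. The NR1D response element called RRE and the receptor half-site AGGTCA were searched as well. The RRE match in Arntl, given below, holds this half-site. The E-box was found in windows of Per1, Cry1 and Ciart, and 7.15% of all 32851 windows in the table hold it. The 250 bases before the start are shown for these 3 genes and for Per3, with the matches in capitals, because they hold matches to sequences of the kind that clock proteins bind.

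Per1 (chr11:69098699-69098948, plus strand, E-box in capitals): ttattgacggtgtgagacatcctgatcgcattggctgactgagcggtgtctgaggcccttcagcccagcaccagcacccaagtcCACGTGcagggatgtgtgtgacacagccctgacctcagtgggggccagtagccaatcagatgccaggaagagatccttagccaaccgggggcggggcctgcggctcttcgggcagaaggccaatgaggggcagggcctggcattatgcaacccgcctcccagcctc

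Cry1 (chr10:85185055-85185304, minus strand, E-box in capitals): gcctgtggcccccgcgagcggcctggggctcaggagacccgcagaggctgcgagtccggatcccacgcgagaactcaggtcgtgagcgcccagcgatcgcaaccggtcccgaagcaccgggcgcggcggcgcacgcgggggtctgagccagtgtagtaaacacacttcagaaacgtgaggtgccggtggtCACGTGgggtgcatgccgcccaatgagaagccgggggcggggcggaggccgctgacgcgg

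Ciart (chr3:95882229-95882478, minus strand, E-boxes in capitals): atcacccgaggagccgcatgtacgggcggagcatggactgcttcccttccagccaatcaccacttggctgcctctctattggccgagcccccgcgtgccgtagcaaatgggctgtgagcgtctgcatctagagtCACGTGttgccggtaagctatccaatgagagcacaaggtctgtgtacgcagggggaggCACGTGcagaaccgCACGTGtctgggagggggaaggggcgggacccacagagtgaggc

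Per3 (chr4:151044666-151044915, minus strand, D-boxes in capitals): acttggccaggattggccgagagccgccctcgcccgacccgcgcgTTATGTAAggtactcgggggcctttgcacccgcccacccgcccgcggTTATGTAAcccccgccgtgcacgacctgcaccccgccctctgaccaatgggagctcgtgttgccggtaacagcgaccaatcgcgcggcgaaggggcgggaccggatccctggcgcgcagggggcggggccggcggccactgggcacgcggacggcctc

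Ciart had 3 E-boxes, whose first bases lie at positions -116, -58 and -44 from its start, while Per1 had 1 at -166 and Cry1 1 at -60. Per3 had the D-box TTATGTAA at -205 and -158, a sequence in 0.938% of windows, and the D-box TTACGTAA, in 0.119% of windows, was in none of the 11. The RRE was found in 0.384% of windows and, among these genes, in 1 of the 2 windows of Arntl. It begins there at position 27, with the start of that window's transcript counted as 1. It is shown with its flanks because it is the kind of element at which the NR1D receptors and NCoR act.

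Arntl (chr7:113207527-113207556, plus strand, RRE in capitals): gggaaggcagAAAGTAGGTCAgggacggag

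The half-site AGGTCA was in windows of Per1, Arntl and Nr1d2, against 16.3% of all windows. No match to any of the sequences was found in the windows of Nr1d1, Dbp and Npas2. Such matches describe the letters of these windows, and binding was not measured.

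Arntl and the genes of the Per and Dbp phase differed in opposite directions between genotypes, but not between thyroid states. Averaged over thyroid states, all 7 measured genes of the Per and Dbp phase (Per1, Per2, Per3, Ciart, Nr1d1, Nr1d2 and Dbp) were lower in mutants, with a median log2 difference of -0.60 beside -0.01 for all clusters, of which 53.6% were lower. Arntl was higher, by 0.97 ± 0.249 (SE), and Cry1 differed by 0.09 ± 0.213. Per1, a repressor of the loop that also answers to hormones and stress, was the 1 gene whose fall passed the test, by 1.16 ± 0.234 or 2.23-fold (limma, adjusted p = 0.0265). The largest difference was that of Dbp, 3.18-fold lower in mutants (-1.67 ± 0.411, adjusted p = 0.0691), and together with that of Arntl (adjusted p = 0.0766) it did not pass. With hypothyroidism the same 7 genes were each higher on average (median 0.93 beside -0.02 for all clusters, of which 46.1% were higher), and of them Per1 and Ciart passed the test. Per3 differed by 0.11 there and turned to -0.06 without control euthyroid replicate 13 and to -0.05 without control hypothyroid replicate 18.

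**Figure D1:**
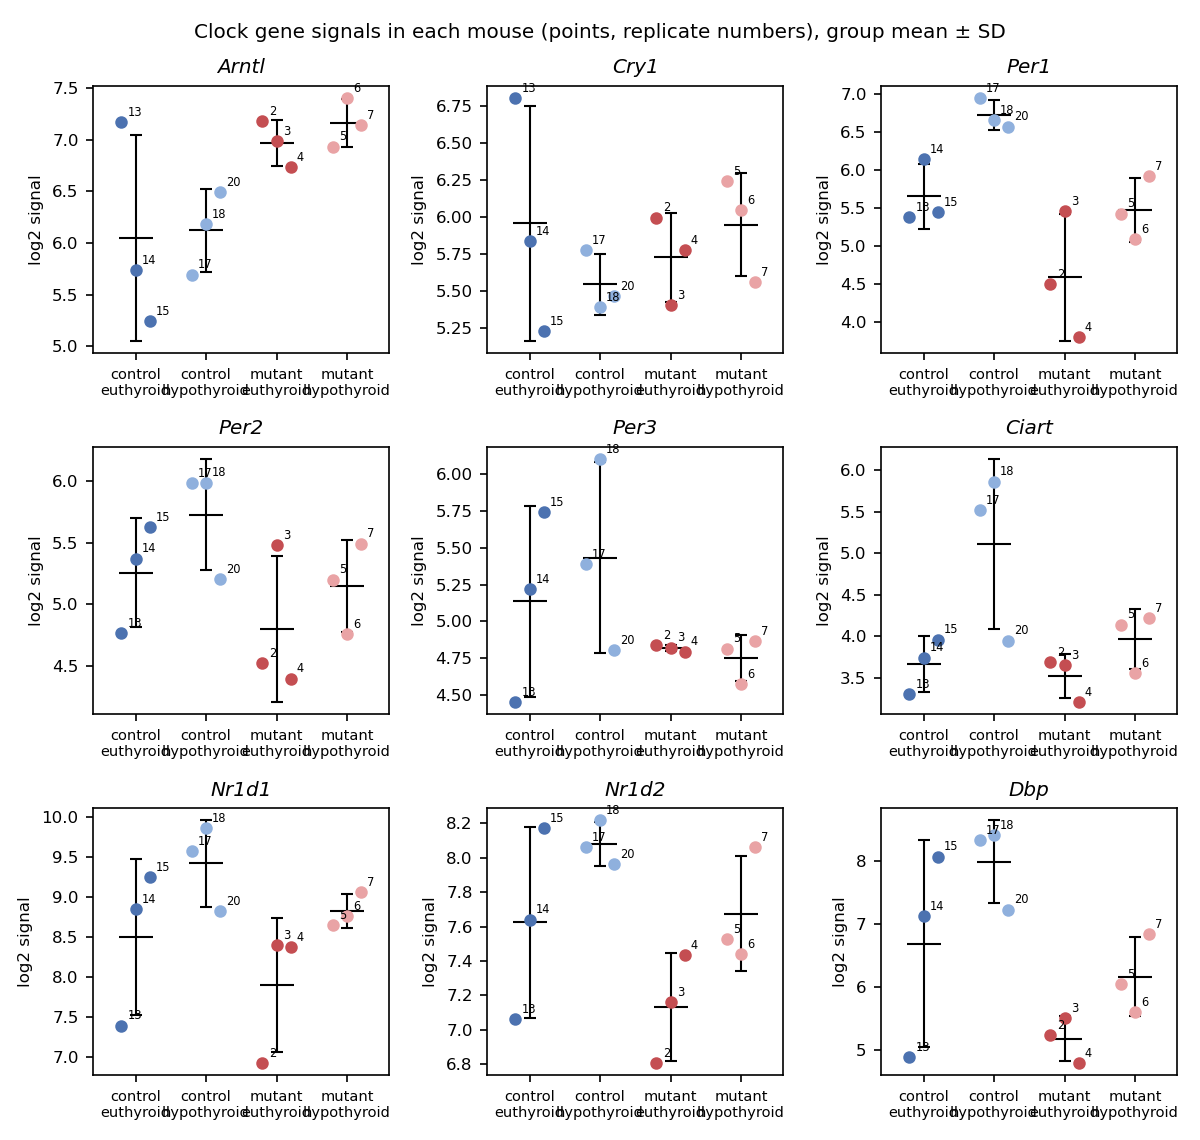
Log2 signals of the 9 measured clock genes (vertical axes, 1 panel a gene) in each mouse of the 4 groups (points with replicate numbers), with the group mean (line) and SD (bars). Arntl lay between 6.73 and 7.40 in the 6 mutants and between 5.25 and 6.49 in the controls other than replicate 13, which lay at 7.17, and Dbp shows the opposite order.

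The activator Arntl was high in every mutant. Its signals were 7.17, 5.74 and 5.25 in euthyroid controls, 5.69, 6.18 and 6.49 in hypothyroid controls, 7.18, 6.98 and 6.73 in euthyroid mutants, and 6.93, 7.40 and 7.14 in hypothyroid mutants (each in the order of the replicate numbers given above). The 6 mutants thus lay above 5 of the 6 controls, and the exception, replicate 13, lay within their range. Group means were 6.05 (SD 0.997, n = 3) and 6.97 (SD 0.223, n = 3) in euthyroid controls and mutants, a difference of 0.91 ± 0.353 with a 95% interval of 0.16 to 1.67 (adjusted p = 0.575). In hypothyroid mice the means were 6.12 (SD 0.402) and 7.16 (SD 0.235), the groups did not overlap, and the difference was 1.04 ± 0.353 (adjusted p = 0.333). Thyroid state moved Arntl by 0.07 in controls and 0.19 in mutants, within the spread of each group.

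Cry1, which encodes a repressor whose transcript peaks later than those of the Per genes, had intervals that span 0 in both genotype comparisons. Its signals were 6.81, 5.84 and 5.23 in euthyroid controls, 5.78, 5.39 and 5.46 in hypothyroid controls, 5.996, 5.40 and 5.78 in euthyroid mutants, and 6.24, 6.05 and 5.56 in hypothyroid mutants. All groups overlapped and replicate 13 was the highest of the 12 mice. Mutants differed from controls by -0.23 ± 0.302 in euthyroid mice (95% interval -0.87 to 0.41) and by 0.41 ± 0.302 in hypothyroid mice (-0.24 to 1.05), and without replicate 13 the former was 0.19.

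Of the Per genes, Per1 separated the groups best. Its signals were 5.37, 6.14 and 5.44 in euthyroid controls, 6.94, 6.65 and 6.57 in hypothyroid controls, 4.50, 5.46 and 3.80 in euthyroid mutants, and 5.42, 5.08 and 5.92 in hypothyroid mutants. The 3 hypothyroid controls were above the 9 other mice, and the lowest 2 signals were those of euthyroid mutants. The means ran from 6.72 (SD 0.197) in hypothyroid controls through 5.65 (SD 0.425) in euthyroid controls and 5.48 (SD 0.418) in hypothyroid mutants to 4.58 (SD 0.835) in euthyroid mutants. The middle groups in that order did not differ beyond their spread. In mutants Per1 differed by -1.07 ± 0.330 when euthyroid (adjusted p = 0.413) and by -1.25 ± 0.330 when hypothyroid (adjusted p = 0.199), and hypothyroidism added 1.07 in controls (adjusted p = 0.152) and 0.89 in mutants (adjusted p = 0.220).

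Averaging over the other factor used all 12 mice, and Per1 then passed in both directions: it fell in mutants, as given above, and rose 1.97-fold in hypothyroid mice (0.98 ± 0.234, adjusted p = 0.0245). The fall in mutants missed the threshold without any 1 of 7 mice: control replicates 14 (adjusted p = 0.0608), 17 (0.0888) and 18 (0.0625) and mutant replicates 2 (0.067), 4 (0.0512), 5 (0.0613) and 6 (0.0781). The rise in hypothyroid mice missed it without replicate 15 (0.0556), 17 (0.0659), 2 (0.0605), 4 (0.0534) or 7 (0.0712). Both calls, and that of Ciart for thyroid state, were also lost with the array SD as a covariate or with every cluster of the table tested, and Per1 kept both directions under every setting tried. Without replicate 3, Per1 passed in hypothyroid against euthyroid mutants (1.33, adjusted p = 0.0417).

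Per2 and Per3, the other Per repressors, did not pass the test in mutants against controls. Per2 read 4.77, 5.37 and 5.63 in euthyroid controls, 5.98, 5.98 and 5.21 in hypothyroid controls, 4.53, 5.48 and 4.40 in euthyroid mutants, and 5.20, 4.76 and 5.49 in hypothyroid mutants. The groups overlapped throughout, with differences between mutants and controls of -0.45 ± 0.300 in euthyroid mice (adjusted p = 0.707) and -0.57 ± 0.300 in hypothyroid mice (adjusted p = 0.521). Per3, whose window holds the D-boxes shown above, read 4.45, 5.22 and 5.74 in euthyroid controls, 5.39, 6.10 and 4.81 in hypothyroid controls, 4.84, 4.82 and 4.80 in euthyroid mutants, and 4.81, 4.58 and 4.87 in hypothyroid mutants. The mutants filled a narrow range, from 4.58 to 4.87, while 4 of the 6 controls lay above it, replicate 20 lay inside it and replicate 13 below it. Averaged over thyroid states, Per3 differed by -0.50 (adjusted p = 0.253) and Per2 by -0.51 (adjusted p = 0.244).

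Ciart, the repressor with 3 E-boxes in its window, was high in 2 mice in its main cluster. It read 3.30, 3.74 and 3.96 in euthyroid controls, 5.52, 5.86 and 3.95 in hypothyroid controls, 3.69, 3.66 and 3.21 in euthyroid mutants, and 4.14, 3.56 and 4.22 in hypothyroid mutants. Hypothyroid control replicates 17 and 18 stood above all other mice, whose highest signal was 4.22. Array medians lay between 4.16 and 4.32, so the signals of those other mice were low. Ciart rose 1.93-fold with hypothyroidism averaged over genotypes (0.95 ± 0.258, adjusted p = 0.0429), with 1.44 in controls (adjusted p = 0.0761) and 0.46 in mutants. That call was kept without replicate 13, 20 or 6 and lost without any of the 9 other mice (adjusted p from 0.0546 to 0.110). A further cluster with the symbol Ciart had lower group means and gave 1.20 for the thyroid difference (adjusted p = 0.056). In that cluster hypothyroid mutant replicate 7 read 4.72, beside 4.62 and 6.02 in hypothyroid control replicates 17 and 18. Without replicate 20, Ciart passed in hypothyroid against euthyroid controls (2.02, adjusted p = 0.00104), in hypothyroid mutants against hypothyroid controls (-1.72, adjusted p = 0.0147) and in mutants on average (-0.93, adjusted p = 0.0148).

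Nr1d1 and Nr1d2 encode the receptors that recruit NCoR. Nr1d1 read 7.39, 8.84 and 9.25 in euthyroid controls, 9.58, 9.86 and 8.82 in hypothyroid controls, 6.92, 8.40 and 8.37 in euthyroid mutants, and 8.65, 8.76 and 9.06 in hypothyroid mutants. The lowest mice were euthyroid mutant 2 and euthyroid control 13, and the highest were hypothyroid controls 18 and 17. Mutants differed from controls by -0.60 ± 0.437 in euthyroid mice (adjusted p = 0.736) and -0.59 ± 0.437 in hypothyroid mice (adjusted p = 0.633). Hypothyroid mice differed from euthyroid mice by 0.92 in controls (adjusted p = 0.387) and 0.93 in mutants (adjusted p = 0.317), and in the mutants the groups did not overlap. The mean signal of Nr1d1 was thus lower in mutants in either thyroid state, and neither difference passed.

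Nr1d2 kept the same order of groups as Nr1d1 over a smaller range. It read 7.06, 7.64 and 8.17 in euthyroid controls, 8.06, 8.22 and 7.96 in hypothyroid controls, 6.81, 7.16 and 7.44 in euthyroid mutants, and 7.53, 7.44 and 8.06 in hypothyroid mutants. The 3 hypothyroid controls lay close together (SD 0.130), while the euthyroid controls spread from replicate 13 to replicate 15 (SD 0.555). Averaged over the other factor, it differed by -0.45 in mutants (adjusted p = 0.215) and by 0.50 in hypothyroid mice (adjusted p = 0.0947). Neither passed, nor did the thyroid difference of Nr1d1 (0.93, adjusted p = 0.0861). Without replicate 15 the thyroid difference of Nr1d2 passed (0.64, adjusted p = 0.0337).

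The output factor Dbp varied most of all. It read 4.88, 7.12 and 8.07 in euthyroid controls, 8.33, 8.41 and 7.23 in hypothyroid controls, 5.23, 5.51 and 4.79 in euthyroid mutants, and 6.05, 5.60 and 6.83 in hypothyroid mutants. Every mutant lay below 5 of the 6 controls, and replicate 13 lay among the mutants. In euthyroid mice the means were 6.69 (SD 1.64) in controls and 5.18 (SD 0.359) in mutants, a difference of -1.51 ± 0.581 (adjusted p = 0.570). In hypothyroid mice the means were 7.99 (SD 0.660) and 6.16 (SD 0.627), the groups did not overlap, and the difference was -1.83 ± 0.581 (adjusted p = 0.287). Hypothyroidism went with higher Dbp in controls (1.30, adjusted p = 0.362) and in mutants (0.98, adjusted p = 0.414), where again the groups did not overlap. Averaged over genotypes the difference was 1.14 (adjusted p = 0.106), and it passed without replicate 15 (1.49, adjusted p = 0.0325).

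**Figure D2:**
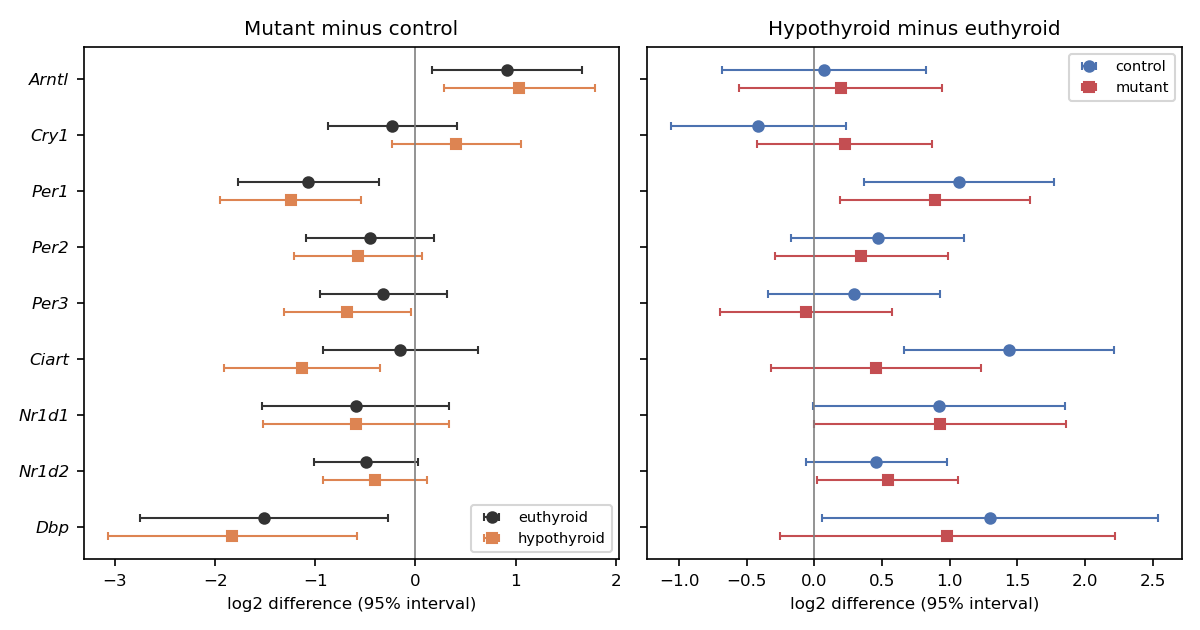
Log2 differences of the 9 clock genes (rows) with 95% intervals of the fit, as mutant minus control in euthyroid and hypothyroid mice (left) and hypothyroid minus euthyroid in controls and mutants (right). The intervals of Arntl lie above 0 and those of Per1 and Dbp below 0 in both thyroid states on the left (Dbp -1.51 and -1.83), although no single-state difference passed the test over all clusters.

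These calls have to be read against those of all 21789 clusters. For mutants against controls, 0 of the 9 genes were called in euthyroid mice (0.129% of all clusters were) and 0 in hypothyroid mice (0.262%), with 3 and 5 of the 9 at an unadjusted p under 0.05 in limma. Over all clusters those shares were 8.13% and 10.4%. For hypothyroid against euthyroid mice, 0 of 9 were called in controls (1.11%) and 0 in mutants (1.11%), with 3 and 2 at an unadjusted p under 0.05, against 13% and 15.8% of all clusters. Averaging over the other factor gave 1 call for genotype (1.14% of all clusters, and 0.234% in the direction of a fall) and 2 for thyroid state (6.04%, and 4.18% in the direction of a rise).

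Groups that did not overlap are common in these data and say less. In euthyroid mice 0 of the 9 genes had mutants and controls that did not overlap (10.4% of all clusters had), and in hypothyroid mice 3 did, Arntl, Per1 and Dbp (22.5%). For thyroid state it was 1 in controls, Per1 (16.7%), and 3 in mutants, Nr1d1, Nr1d2 and Dbp (25.7%), the last count being near the share of all clusters. All 7 genes of the Per and Dbp phase were lower in mutants in either thyroid state (medians -0.49 and -0.68), against 50% and 53.8% of all clusters. With hypothyroidism 7 of 7 were higher in controls (median 0.92) and 6 of 7 in mutants (median 0.54), Per3 being the exception at -0.07, against 48.7% and 47.3%. The comparisons share arrays (the euthyroid controls serve for genotype and for thyroid state), so these counts are not independent of each other. The mutant effect did not pass a test of its difference between thyroid states for any of the 9 genes or any other cluster (limma interaction term, adjusted p = 0.9999 for each of the 9, and 0 of the 9 at an unadjusted p under 0.05).

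The clock genes were among the most variable genes within groups. The within-group SD of the 9 genes ran from 0.367 (Nr1d2) to 0.953 (Dbp), with a median of 0.522, while the median over all clusters was 0.193. This placed Nr1d2 at percentile 95.9 of all clusters and Dbp at 99.9. The 3 mice of a group therefore differed more in these genes than in most of the genome, and 1 mouse can decide a value.

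Control euthyroid replicate 13 was that mouse in several comparisons. All 7 of its Per and Dbp phase genes lay below its group mean, and both Arntl and Cry1 lay above it. Replicates 20 and 6 also had 7 of 7 below their group mean, with 1 of 2 and 2 of 2 above. Without replicate 13, a removal singled out after its values were seen, Arntl rose in euthyroid mutants by 1.47 ± 0.227 (adjusted p = 0.00969) and Dbp fell by 2.42 ± 0.387 (adjusted p = 0.0117), while 0.881% of all clusters were called. In hypothyroid mice, where the removal changes only the shared estimate of spread, Arntl (1.04, adjusted p = 0.0355) and Dbp (-1.83, adjusted p = 0.0274) passed as well, with 0.61% of all clusters.

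Averaged over thyroid states, 6 of the 9 genes passed without replicate 13, where 8.56% of all clusters did. The log2 difference of Arntl was 1.25, and those of the genes that fell were -2.12 (Dbp), -1.23 (Per1), -0.87 (Nr1d1), -0.67 (Per3) and -0.59 (Nr1d2), with adjusted p from 0.000598 to 0.0438. For thyroid state the same count of 2 was reached, Per1 (0.91, adjusted p = 0.0229) and Ciart (0.86, adjusted p = 0.0416), where 16.4% of all clusters passed. Nothing in the labels sets replicate 13 apart from the 2 other euthyroid controls.

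**Figure D3:**
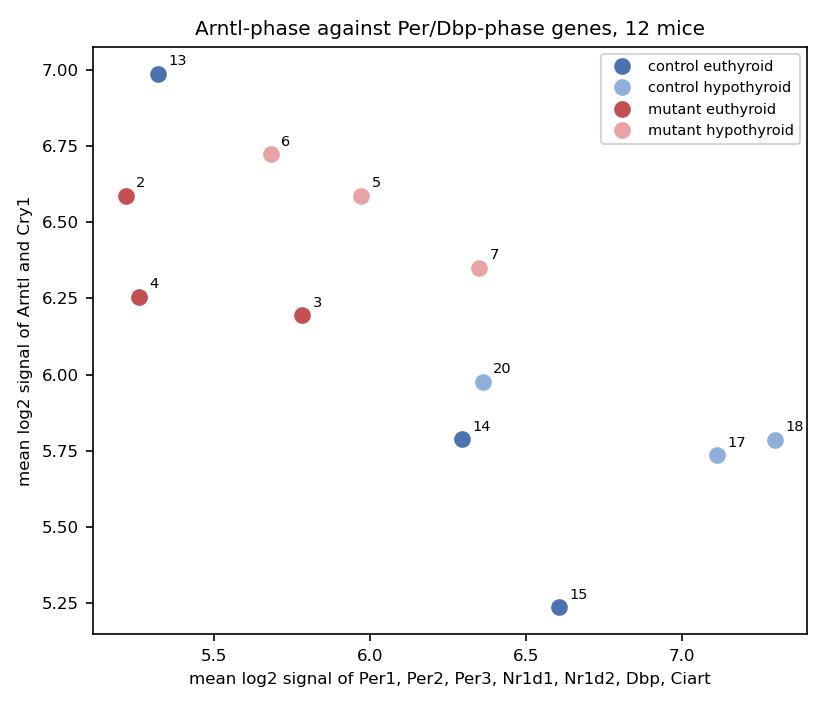
Mean log2 signal of Arntl and Cry1 (vertical axis) against the mean of the 7 Per and Dbp phase genes (horizontal axis) in each of the 12 mice, coloured by group and marked with the replicate number. The 6 mutants lie higher on the vertical axis than 5 of the 6 controls, and control euthyroid replicate 13 is the highest of the 12 mice.

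Setting the phases against each other gave the mean of Arntl and Cry1 minus the mean of the 7 other genes, a description with no test. It was 1.67, -0.51 and -1.37 in euthyroid controls, -1.38, -1.51 and -0.38 in hypothyroid controls, 1.37, 0.41 and 1.00 in euthyroid mutants, and 0.61, 1.04 and 0.00 in hypothyroid mutants. All 6 mutants were above 5 of the 6 controls, and replicate 13 had the highest value of the 12 mice. Among controls the mean was -0.07 (SD 1.57) in euthyroid and -1.09 (SD 0.616) in hypothyroid mice, and among mutants it was 0.93 (SD 0.484) in euthyroid and 0.55 (SD 0.523) in hypothyroid mice. The difference between mutants and controls was 1.00 in euthyroid and 1.64 in hypothyroid mice, and the former ran from 0.35 to 1.87 as each mouse was left out.

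Arntl and Dbp were set against each other within groups. Over the deviations of the 12 mice from their group means, Pearson's r was -0.859 (exact permutation within groups, p = 0.0386, two-sided) and Spearman's rho was -0.720 (permutation p = 0.0679), the 1 relation of this kind computed. Without replicates 13 and 15, the mice farthest out in Dbp, r was -0.473 (exact permutation p = 0.287) and rho -0.515 (p = 0.245). The relation was thus weaker without those 2 euthyroid controls and kept its sign. Leaving out the mice farthest out also narrows the range of Dbp, so this cannot show whether the other 10 mice lack the relation. Among the euthyroid mutants the mouse with the least Arntl, replicate 4, also had the least Dbp.

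**Figure D4:**
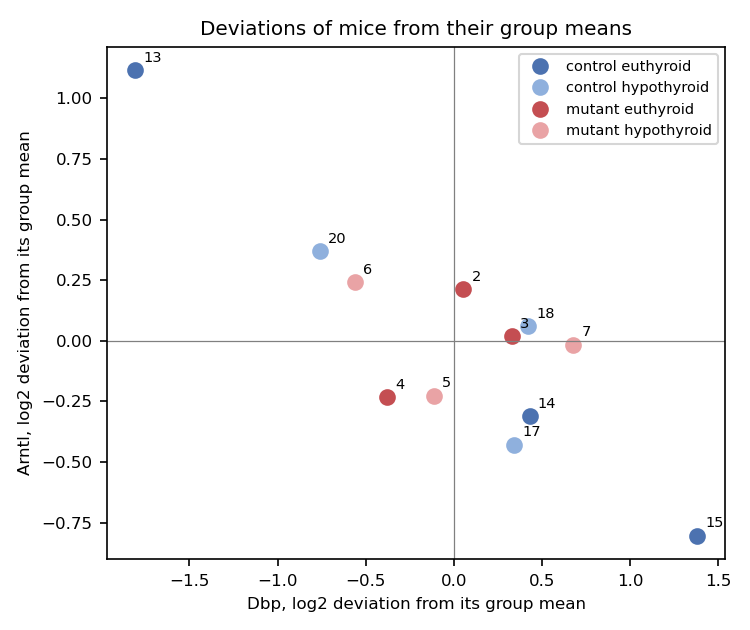
Deviation of each mouse from its group mean in Arntl (vertical axis, log2) and in Dbp (horizontal axis, log2), coloured by group. Control euthyroid replicates 13 and 15 lie at the opposite ends, and without them r moves from -0.859 to -0.473.

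The other genes of the loop gave few calls. Of the positive limb and its ROR receptors, which activate where NR1D receptors repress, 4 of 6 listed genes were measured (Arntl, Clock, Rora and Rorb). Averaged over thyroid states 2 were higher and 2 lower in mutants (median 0.19), and none passed in any genotype comparison. Clock, the partner of BMAL1, read 7.58, 6.21 and 6.63 in euthyroid controls, 6.90, 7.08 and 7.15 in hypothyroid controls, and from 7.19 to 7.64 in the mutants. The mutants thus lay above the controls other than replicate 13, as with Arntl, with an averaged difference of 0.49 ± 0.174 (adjusted p = 0.183). Rorb differed by -0.27 on average. Rora differed by -0.11 with genotype and rose with hypothyroidism averaged over genotypes (0.50 ± 0.126, adjusted p = 0.0320), the 1 call of the list for thyroid state.

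Of 10 genes of the negative limb, all measured, 9 were lower in mutants on average (median -0.53), as were 53.6% of all clusters. Per1 was the 1 call, beside 0.234% of all clusters called lower. Most of the list repeats the clock genes above, and the 3 others were lower with 0 called. Outside the genes already given, the list holds Cry2, a further cryptochrome, and Bhlhe40 and Bhlhe41, which encode the E-box repressors DEC1 and DEC2. Cry2 read 6.35, 6.95 and 6.92 in euthyroid controls, 7.28, 7.24 and 6.85 in hypothyroid controls, 6.39, 6.07 and 6.36 in euthyroid mutants, and 6.48, 6.35 and 6.70 in hypothyroid mutants. All mutants lay below the controls other than replicate 13, and the difference was -0.54 ± 0.127 (adjusted p = 0.0561). Bhlhe41 differed by -0.74 and Bhlhe40 by -0.20, and both were high in hypothyroid controls 17 and 18, the mice in which the main cluster of Ciart was high.

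**Figure D5:**
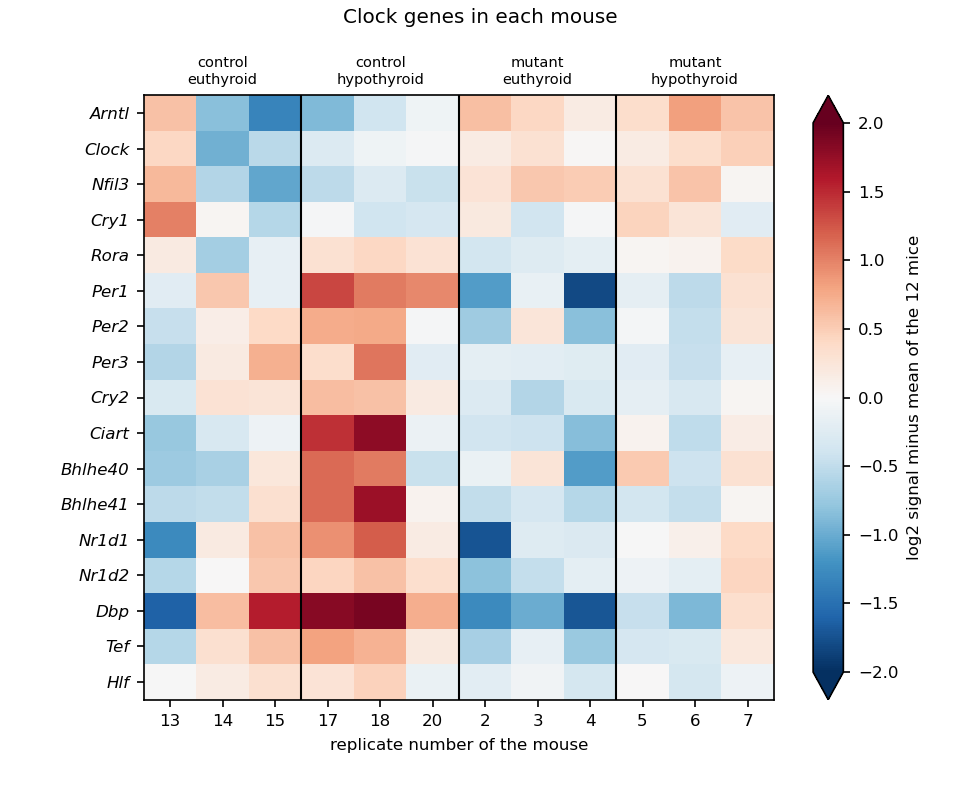
Log2 signal of 17 clock genes (rows) in each mouse (columns, by group and replicate number) minus the mean of the 12 mice, red above and blue below the mean. Replicate 13 has the colours of most mutants in Arntl, Clock, Nfil3 and Dbp, and hypothyroid controls 17 and 18 are the reddest in Per1, Ciart, Bhlhe41 and Dbp.

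Of the 4 factors that act on D-boxes, all measured, 3 were lower and 1 was higher in mutants on average. Over all clusters 53.6% were lower. Of the 4 factors 0 were called, beside 1.14% of all clusters. Tef and Hlf, relatives of Dbp, differed by -0.67 ± 0.189 (adjusted p = 0.106) and -0.36 ± 0.115 (adjusted p = 0.145), and Nfil3, which represses at the same sequence, by 0.74 ± 0.211 (adjusted p = 0.110). Nfil3 read 7.94, 6.71 and 6.25 in euthyroid controls, 6.76, 7.01 and 6.84 in hypothyroid controls, 7.55, 7.82 and 7.80 in euthyroid mutants, and 7.59, 7.86 and 7.32 in hypothyroid mutants. The mutants were again above the controls other than replicate 13. Of other rhythmic liver genes with the Per and Dbp phase, 8 of 9 listed were measured. In mutants 7 were lower on average (median -0.41), as were 53.6% of all clusters, with 0 called. The strongest of these beside Tef and Bhlhe41 was Usp2, a deubiquitinase (-0.57), and Wee1, a mitotic kinase, rose with hypothyroidism (0.59 ± 0.149, adjusted p = 0.0315).

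A list drawn up as genes repressed by the NR1D receptors was read, and whether each is so repressed in these livers was not tested. Of 8 listed, 6 were measured (Arntl, Clock, Cry1, Nfil3, Elovl3 and Cyp7a1), and all 6 were higher in mutants on average. Their median was 0.86 beside -0.01 over all clusters, of which 53.6% were lower. Of the 6 genes 0 were called, beside 1.14% of all clusters. Arntl and Cry1 repeat the clock genes above, Cry1 with a difference of only 0.09, and Clock and Nfil3 were also given before. Cyp7a1, the rate-limiting enzyme of bile acid synthesis, differed by 1.24 ± 0.316 (adjusted p = 0.0750), and Elovl3, a fatty acid elongase, by 1.11 ± 0.307 (adjusted p = 0.100). With hypothyroidism, in controls, Cyp7a1 fell by 2.42 ± 0.447 (adjusted p = 0.0140) and Elovl3 fell by 2.17 ± 0.435 (adjusted p = 0.0236). In mutants Elovl3 fell by 3.25 ± 0.435 (adjusted p = 0.00156) and Cyp7a1 differed by -1.63 ± 0.447 (adjusted p = 0.114). Elovl3 averaged 3.01 in hypothyroid controls and 3.59 in hypothyroid mutants, under the array medians of 4.16 to 4.32. The signals to which Elovl3 fell were thus low. Of the complex itself, Ncor1 was not analysed here, and Hdac3, Tbl1x, Tbl1xr1 and Gps2 differed by -0.03, 0.00, 0.27 and -0.01, with 0 called. A list of kinases and ubiquitin ligases that act on clock proteins, which also holds the replication fork gene Timeless (7 of 8 measured), had a median of 0.03 and 0 calls. Its largest differences were those of Timeless (-0.18) and of the kinase gene Csnk1d (0.15).

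Per1 also belongs to the genes that glucocorticoids induce, of which 10 of 10 were measured. On average 8 were lower in mutants (median -0.41; 53.6% of all clusters were lower), with Per1 and Klf9 called (0.234% of all clusters were called lower): Klf9, a transcription factor induced by thyroid hormone too, fell by 0.63 ± 0.144 (adjusted p = 0.0494). With hypothyroidism 9 of 10 were higher (median 0.76; 46.1% of all clusters were higher) and 4 rose (4.18% of all clusters), Per1 together with Fkbp5, a chaperone of the glucocorticoid receptor (1.08 ± 0.140, adjusted p = 0.000309), Zbtb16 (1.34) and Sgk1 (0.70). Fkbp5 was close to level between genotypes (-0.08 ± 0.140, adjusted p = 0.801). Klf9 was close to level between thyroid states, with means of 8.01 and 8.01 in euthyroid and hypothyroid controls and 7.37 and 7.40 in the mutants.

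Lists for handling, temperature and feeding were read for the same mice. Of 11 immediate early genes 11 were lower in mutants on average (median -0.28), as were 53.6% of all clusters. Nr4a1, an orphan receptor gene, was the 1 call (-1.44 ± 0.263, adjusted p = 0.0144), beside 1.14% of all clusters. The difference of Nr4a1 was -0.23 in euthyroid mice (adjusted p = 0.893) and -2.66 in hypothyroid mice (adjusted p = 0.00521), and the difference between these values did not pass. Nr4a1 rose in hypothyroid controls by 2.68 (adjusted p = 0.00142), while Fosb (-0.45) and Egr1 (-0.60) fell with hypothyroidism on average. Of 8 measured temperature and heat shock genes 7 were higher in mutants on average (median 0.31), while 53.6% of all clusters were lower. Of these genes 0 were called, beside 1.14% of all clusters. Rbm3, which cold induces, rose in hypothyroid controls by 0.91 (adjusted p = 0.0267). Of 7 measured genes of fasting and feeding, Pdk4, which spares glucose, rose in mutants by 1.70 (adjusted p = 0.00342) and Pck1, of gluconeogenesis, fell by 0.83 (adjusted p = 0.0338). The median of the 7 was 0.05, and 1.14% of all clusters were called for genotype on average. The coactivator gene Ppargc1a rose in hypothyroid controls by 1.26 (adjusted p = 0.0122). The part of these differences in those of the clock genes was not tested.

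Markers of other liver cells differed between the groups as well. All 12 Kupffer cell and macrophage markers were higher in mutants on average (median 0.51), of which 1 was called, Adgre1 at 0.66, beside 1.14% of all clusters. All 12 were lower in hypothyroid mice (median -0.65), of which 4 were called, beside 6.04% of all clusters. Their mean signal ran from 5.86 to 5.98 in euthyroid controls, 5.35 to 5.53 in hypothyroid controls, 6.19 to 7.25 in euthyroid mutants and 5.37 to 6.22 in hypothyroid mutants, and log2 signals have no true 0. All 6 sinusoidal endothelium markers were higher in hypothyroid mice on average (median 0.24), as were 46.1% of all clusters. Of the 6 markers 0 were called, beside 6.04% of all clusters. Their mean signal was 6.12 to 6.51 in euthyroid and 6.52 to 6.67 in hypothyroid controls, and 6.34 to 6.59 and 6.24 to 7.07 in the mutants. The 1 measured erythroid marker, Alas2, averaged 6.30 and 6.75 in euthyroid and hypothyroid controls and 5.98 and 6.75 in the mutants, and was not called. The part of these markers in the clock gene differences was not tested, and in whole liver fewer cells of a type and less RNA per cell cannot be told apart.

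The clusters whose signals followed a clock gene most closely over the 12 mice were ranked by Pearson's r, as a description. For Dbp these were Tef (r = 0.976, Spearman's rho = 0.937), Kansl3 (0.965, rho = 0.979), Cnppd1 (0.960, rho = 0.944) and Rec114 (0.935, rho = 0.902). Tef is a known relative of Dbp, while Kansl3 encodes a chromatin complex subunit and Rec114 a protein of meiosis. For Arntl they were Tubb2a (0.951, rho = 0.860), Pnp (0.950, rho = 0.944), Rnf125 (0.936, rho = 0.909) and Ercc3 (0.931, rho = 0.867), of which Tubb2a, a tubulin gene with close relatives that could share probes, rose in mutants by 1.00 ± 0.216 (adjusted p = 0.0386) and Rnf125, a ubiquitin ligase gene, by 0.82 ± 0.174 (adjusted p = 0.0354). For Per1 they were Hspb8 (0.953), Apoh (0.939), Mepce (0.937) and Inpp4a (0.933), and for Nr1d1 Cyb5r1 (0.937), Setd1a (0.904), Klhl21 (0.895) and Gadl1 (0.894). Among these, Inpp4a, a lipid phosphatase gene, rose with hypothyroidism as Per1 did (0.73 ± 0.123, adjusted p = 0.00277) and differed by -0.52 with genotype (adjusted p = 0.0567). The 12 mice share groups as well as genes, so a high r here reflects group means and single mice together. These clusters were picked for following a clock gene in the same mice. Their differences between groups, with the adjusted p, therefore follow in part from that choice.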

How the data were processed

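Liver RNA of 12 mice was hybridised to 12 arrays, and the deposited values are log2 signals made by the authors with RMA, per the submitters' processing notes, with no version or options given. All 35557 transcript clusters had values. Genes were named from the platform annotation, which gives 1 symbol to 21789 clusters. Samples were grouped by their titles, and no batch or scan date is given in the sources used here.

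All 21789 clusters were fitted with 4 group means in limma 3.58.1 (R 4.3.3), by lmFit and eBayes with no filter on level and with Benjamini-Hochberg adjustment within each comparison and calls at an adjusted p under 0.05. SE and 95% intervals are those of the fit. The p-values set a difference against the spread between mice, and the number of arrays limits the precision. Named genes were every listed clock gene, the called members of each list or else up to 3 with the largest averaged mutant effect, and the 4 clusters nearest to each of Arntl, Dbp, Per1 and Nr1d1. Cry2, Bhlhe40, Hlf and Tbl1x were named beside this rule, after their values were seen. The clock genes, lists and comparisons were chosen with earlier results of these data known. The fit was tested on simulated data. Alternatives were other normalization, other sets of clusters, array SD or array weights, the compared groups alone and each array left out. Leaving out both ends of the first principal component was chosen after seeing the data. Since no cluster carries the symbol Npas2, the Arntl phase was Arntl and Cry1.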

Additional observations from a re-analysis of the deposited data

How the results depend on the processing

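Directions and calls were recomputed under each alternative, and the cause of each change was not tested. Quantile normalization and median centring changed no count of called clock genes. With clusters above the median level 1 gene was called for thyroid state, and with every cluster of the table, a larger family of tests, 0 for genotype and 0 for thyroid state. The array SD as a covariate also left 0 and 0, and it turned the thyroid difference of Arntl to -0.33 in controls, -0.42 in mutants and -0.37 on average, and that of Per3 in mutants to 0.23. Array weights were 0.447, 0.289 and 3.52 for euthyroid control replicates 13, 14 and 15, so that group rested mostly on replicate 15. With these weights 2 genes were called for genotype in euthyroid mice, 3 in hypothyroid mice, 8 on average and 2 for thyroid state in controls. The weights turned Cry1 to 0.34 (genotype, euthyroid), 0.13 (thyroid state, controls) and 0.18 (thyroid state, average) and Per3 to -0.10 (thyroid state, controls) and -0.11 (average). The compared groups alone gave 3 calls for genotype in hypothyroid mice (Per1, Arntl and Dbp). Without both ends of the first principal component 0 and 1 genes were called on average for genotype and thyroid state, Arntl differed by -0.084 between hypothyroid and euthyroid controls, and r of Arntl and Dbp was -0.89 (exact permutation p = 0.222). The other Ciart cluster gave 0.15 for genotype in euthyroid mice.

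With each array left out in turn, 0 to 2 genes were called for genotype in euthyroid mice, 0 to 2 in hypothyroid mice and 0 to 6 on average, 0 to 1 for thyroid state in controls, 0 to 1 in mutants and 0 to 2 on average. The 6 came without control euthyroid replicate 13. The r of Arntl and Dbp ran from -0.92 to -0.52. Some differences, none of them called, changed sign: for thyroid state in controls Arntl ran from -0.33 to 0.63, Cry1 from -0.78 to 0.011 and Per3 from -0.048 to 0.61. For thyroid state on average the ranges were -0.068 to 0.41 (Arntl), -0.28 to 0.12 (Cry1) and -0.057 to 0.27 (Per3), and Per3 ran from -0.12 to 0.023 in mutants. For genotype, Cry1 ran from -0.60 to 0.19 in euthyroid mice and from -0.10 to 0.30 on average, and Ciart from -0.33 to 0.0030 in euthyroid mice. No paired analysis was possible because the groups share no replicate numbers. With 3 mice a group and a high spread between mice in these genes, a missed threshold does not show that a gene was level between groups.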
